A study of Anas platyrhynchos with 6 samples.

Results

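The most abundant annotated liver transcripts of laying ducks were described in air with much or little ammonia. They were the genes with an Ensembl duck identifier whose mean over 6 liver libraries was 1000 FPKM or more, and 101 of the 16450 annotated genes, in a table of 23440 genes, met this limit. FPKM is the count of a gene scaled to the length of its exons and to the total count of the library. The other rows of the table are newly assembled genes, of which 2 averaged 1000 FPKM or more and are left aside here. The genes were thus chosen by their mean FPKM, so their abundance and their joint share are given as a description and carry no test.

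The birds were Shanma laying ducks (Anas platyrhynchos, variety domestica). There were 3 liver libraries of high ammonia ducks, kept at 75 ± 5 ppm, and 3 of low ammonia ducks, kept at 5 ± 5 ppm. The 176 ducks of the study were 150 days old when they were chosen, and exposure lasted 30 days, from day 200 to day 230. Both groups had the same diet and water, but each had a room of its own, so room and ammonia cannot be told apart. The labels do not say whether each library is 1 bird, a pool or a repeat of another. The spread behind every p-value comes from these 3 and 3 samples and may be technical. Limma, the test used, also draws the variance of each gene towards that of the other genes tested. Libraries are numbered 1 to 3 in order of deposit, so a number names a library and pairs nothing across groups.

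A liver devotes much of its messenger RNA to a small number of secreted plasma proteins, such as albumin, apolipoproteins and transferrin. In a laying bird, oestrogen further directs the liver to make the precursors of egg yolk, the vitellogenins and the proteins of very low density lipoprotein, which travel in the blood to the ovary. Birds bind ammonia mainly by building glutamine and then uric acid in the liver. The list of 26024 duck genes from RefSeq used here holds no Ensembl identifiers, so the 101 genes could not be looked up. No other source used here gives names for them. No gene below is therefore given a name, a role or a sequence, the labelled tissue could not be set against its marker genes, and lists of pathway genes could not be counted. Genes are called by their rank of mean FPKM, from rank 1 for the highest to rank 101 for the lowest, with the length of exon recovered from the steps of the FPKM values. For each gene, the length and the counts may both be too small by a whole factor of its own.

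The libraries held from 13415827 to 23584934 counts. The lowest count of any of the 101 genes in any library was 915, which gives a counting error of 3.31%, and the median gene had at least 13480 counts in its lowest library, a counting error of 0.861%. For the steadiest gene, rank 80, the counting error of 1.48% at its lowest count was close to its coefficient of variation of 1.61% in high ammonia. All 101 genes passed the filter of the test, at least 1 FPKM in 3 or more libraries, and entered a fit of 11717 genes.

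The 101 genes together held nearly equal mean shares of all FPKM in both groups. Their share was 54.0%, 53.5% and 55.5% in high ammonia libraries 1, 2 and 3, against 56.6%, 52.7% and 53.7% in low ammonia libraries 1, 2 and 3. The means were 54.3% ± 1.06 in high ammonia and 54.3% ± 2.05 in low ammonia (SD, n = 3 each), and the ranges overlapped. By counts in place of FPKM the share was 51.5% ± 2.16 in high ammonia and 49.5% ± 3.37 in low ammonia. In a bulk liver sample, fewer cells of a type and less RNA per cell cannot be told apart in any such share.

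Within this total the share of the gene of rank 1, with 598 bases of exon, differed widely between libraries. It held 14.5%, 12.9% and 15.01% of all FPKM in high ammonia libraries 1, 2 and 3, against 13.7%, 9.26% and 10.2% in low ammonia libraries 1, 2 and 3. Low ammonia library 1 lay within the range of the high ammonia libraries, and the other low ammonia libraries lay below it. The remaining 100 genes held 40.2% ± 0.583 in high ammonia and 43.3% ± 0.342 in low ammonia (SD, n = 3 each). Their high ammonia libraries lay between 39.5% and 40.6%, and their low ammonia libraries between 42.9% and 43.5%, with no overlap. Rank 1 stays in the total, so a higher share of rank 1 leaves less for all other genes together. The shares did not mirror each other in every library. High ammonia library 3 had more of rank 1 than library 1, at 15.01% against 14.5%. It also had more of the other 100 genes, at 40.5% against 39.5%. With rank 1 taken out of the total, the 100 genes held 46.8% ± 0.753 in high ammonia, from 46.2% to 47.7%. In low ammonia they held 48.7% ± 0.945, from 47.9% to 49.7%, and the groups again did not overlap. Ranks 11 to 101 held 25.002% ± 0.403 in high ammonia and 25.5% ± 0.516 in low ammonia, while ranks 1 to 10 held 29.3% ± 0.686 in high ammonia and 28.8% ± 2.41 in low ammonia.

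**Figure D1:**
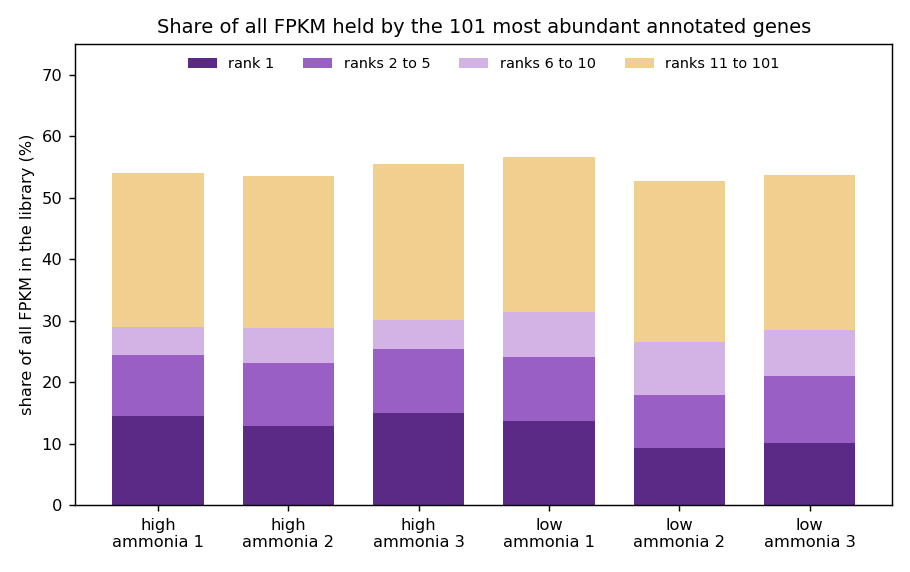
Stacked bars give the percentage of all FPKM in each library (vertical axis) held by the gene of rank 1, by ranks 2 to 5, by ranks 6 to 10 and by ranks 11 to 101, with high ammonia libraries on the left. The totals lie between 52.7% and 56.6%, while the rank 1 block is lowest in low ammonia libraries 2 and 3, at 9.26% and 10.2%.

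The levels fell steeply with rank. Only 8 genes averaged 10000 FPKM or more, 35 averaged from 2000 to 10000 and 58 averaged from 1000 to 2000. The limit cut through a continuous series of values, with the last genes inside it at 1009 and 1003 FPKM and the next annotated genes outside it at 987 and 985 FPKM. In 74 of the 101 genes every library reached 1000 FPKM. In 14 genes only 1 group had a mean of at least 1000 FPKM, 8 through high ammonia and 6 through low ammonia. A further 4 annotated genes reached 1000 FPKM in the mean of high ammonia and 4 in that of low ammonia without reaching it over both.

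Exon length separated rank by FPKM from rank by counts. The 101 genes had a median of 598 bases of exon (quartiles 296 and 1230), against 1352 bases for all genes tested (quartiles 714 and 2259). Under 200 bases were 14 of the 101 genes (13.9%) and 531 of all genes tested (4.53%). FPKM divides by length, so a short gene reaches 1000 FPKM with fewer counts. The median was 851 bases in annotated genes at 100 to 1000 FPKM and 1257 bases in those at 10 to 100 FPKM. The cause of the shorter lengths at higher FPKM was not tested. Rank 5 had 92 bases, took 1.60% of all FPKM and 0.130% of counts, and was rank 47 by counts. Rank 91 had 13890 bases, the longest here, took 0.126% of FPKM and 1.52% of counts, and was rank 8 by counts. By counts the order began with rank 2 (2301 bases, 7.68% of counts), rank 1 (6.58%), rank 9 (5412 bases, 5.14%) and rank 15 (5465 bases, 4.28%).

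Among the 10 genes with the highest mean, 1 passed the test between groups, the gene of rank 10. The gene of rank 1 had 127199, 113342 and 125727 FPKM in high ammonia libraries 1, 2 and 3, against 117427, 82441 and 94373 FPKM in low ammonia libraries 1, 2 and 3. The groups overlapped through low ammonia library 1, and the log2 difference, high minus low on the log2(FPKM + 1) scale as everywhere below, was 0.33 (SE 0.16, limma adjusted p = 0.351). Rank 2, with 2301 bases, had 35119, 29981 and 40434 FPKM in high ammonia, against 42013, 24701 and 28080 FPKM in low ammonia. Here the highest and the lowest of the 6 values both came from low ammonia, so the groups overlapped (log2 difference 0.18, SE 0.23, limma adjusted p = 0.716).

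The gene of rank 3, with 507 bases, had 21495, 23486 and 14955 FPKM in high ammonia libraries 1, 2 and 3, against 17599, 22822 and 37426 FPKM in low ammonia libraries 1, 2 and 3. The groups overlapped, and low ammonia library 3 stood above the rest (log2 difference -0.33, SE 0.30, limma adjusted p = 0.607). Rank 4, with 1564 bases, was the steadiest of the 10, at 17837, 20048 and 18198 FPKM in high ammonia, against 17948, 16428 and 17433 FPKM in low ammonia. Its highest value was 1.22 times its lowest, and limma gave a log2 difference of 0.11 (SE 0.13, adjusted p = 0.695). Ranks 5, 6 and 7, with 92, 204 and 114 bases, had overlapping groups, and their log2 differences of 0.015, -0.30 and -0.40 did not pass the test (limma, adjusted p = 0.982, 0.532 and 0.454).

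Ranks 8 and 9 did not overlap between groups but missed the threshold. Rank 9, with 5412 bases, had 12001, 11077 and 13244 FPKM in high ammonia libraries 1, 2 and 3, against 9534, 4549 and 6573 FPKM in low ammonia libraries 1, 2 and 3. Limma gave a log2 difference of 0.88 (SE 0.26, adjusted p = 0.165), and its share of counts was 6.55% in high ammonia and 3.73% in low ammonia. Rank 8 is described with the variable genes below.

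Limma, with p-values adjusted by Benjamini and Hochberg and a threshold of 0.05, called 11 of the 101 genes (10.9%), of which 5 rose and 6 fell with high ammonia. Over all 11717 genes tested, 0.410% rose, 0.376% fell and 0.785% were called in either direction. Because the limit was set on the mean of both groups, a gene far above 1000 FPKM in a single group could enter through it, and 4 of the 11 called genes had a group mean under 1000 FPKM. Among the 87 genes with both group means at 1000 FPKM or more, 2 rose and 5 fell (8.05%). In the class of 773 annotated genes at 100 to 1000 FPKM, 6 rose and 5 fell (1.42%). The difference between these shares was not tested.

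**Figure D2:**
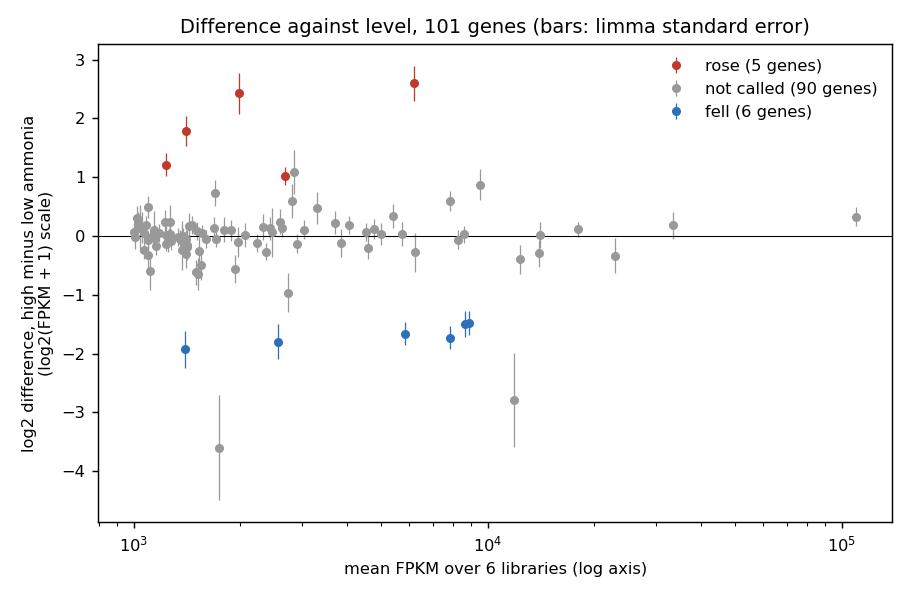
Each point is 1 of the 101 genes, with mean FPKM over 6 libraries on a log axis across and the log2 difference, high minus low ammonia on the log2(FPKM + 1) scale, upwards; bars are limma standard errors. The 5 genes that rose lie between 1.03 and 2.60, the 6 that fell between -1.93 and -1.48, and the lowest 2 points, at -3.60 and -2.79, are genes that missed the threshold with wide errors.

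Leaving out any 1 library lowered the number of calls, among the 101 genes as among all 11717 genes tested. Without high ammonia library 1, 2 or 3, limma called 0 rising and 0 falling, 0 and 1, and 0 and 0 of the 101 genes. Without low ammonia library 1, 2 or 3 it called 3 and 3, 0 and 2, and 3 and 1. Over all genes tested, 48 rose and 44 fell with all libraries. Without high ammonia library 1, 2 or 3 these calls became 5 and 3, 18 and 16, and 8 and 4. Without low ammonia library 1, 2 or 3 they became 28 and 28, 21 and 12, and 20 and 4. At an unadjusted limma p below 0.05, 10 of the 101 genes were higher and 12 lower with all libraries. In the 6 fits with 1 library left out, from 8 to 13 were higher and from 9 to 13 lower. Over all 11717 genes tested, 2013 had such a p with all libraries, and from 1397 to 2055 in those 6 fits. With median-ratio scaling, which moved the median of all genes tested by 0.12, 5 of the 101 genes rose and 3 fell, so that rises made up 62.5% of the calls in place of 45.5%. Over all genes tested, this scaling gave 74 rises and 33 falls in place of 48 and 44. All 11 called genes kept their direction in every fit.

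The genes that rose most were ranks 17 and 44. ENSAPLG00000015664, rank 17 with 135 bases, had 10662, 11502 and 9499 FPKM in high ammonia libraries 1, 2 and 3, against 1066, 2039 and 2408 FPKM in low ammonia libraries 1, 2 and 3. Every high ammonia value was above every low ammonia value, and the group mean was 5.74 times as high (log2 difference 2.60, SE 0.30, limma adjusted p = 0.0181). ENSAPLG00000015665, rank 44 with 1344 bases, had 3048, 3713 and 3130 FPKM in high ammonia, against 346, 669 and 984 FPKM in low ammonia. It too kept the groups apart, and its mean was 4.95 times as high (log2 difference 2.42, SE 0.35, limma adjusted p = 0.0317). In both genes low ammonia library 1 was the lowest and library 3 the highest of the low ammonia libraries.

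The other genes that rose were ranks 64, 34 and 82. Rank 64, with 1038 bases, had 2303, 2352 and 1861 FPKM in high ammonia libraries 1, 2 and 3, against 434, 656 and 854 FPKM in low ammonia libraries 1, 2 and 3 (log2 difference 1.79, SE 0.26, limma adjusted p = 0.0309). The groups did not overlap, and the order of the low ammonia libraries was that of ranks 17 and 44. Rank 34, with 666 bases, had 3177, 3747 and 3854 FPKM in high ammonia, against 1699.6, 1930.4 and 1649 FPKM in low ammonia (log2 difference 1.03, SE 0.15, limma adjusted p = 0.0342). It was the only called gene that varied more within high than within low ammonia, with an SD of 0.15 against 0.12 on the log2 scale. Rank 82, with 1536 bases, averaged 1718 ± 252 FPKM in high ammonia and 744 ± 143 FPKM in low ammonia (SD, n = 3 each), and limma gave 1.21 on the log2 scale (SE 0.20, adjusted p = 0.0495).

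Of the genes that fell, 4 stood close together in rank, at 10, 11, 14 and 18. Rank 10, with 1599 bases, had 4352, 4212 and 5444 FPKM in high ammonia libraries 1, 2 and 3, against 11639.6, 16443 and 11209 FPKM in low ammonia libraries 1, 2 and 3. Rank 11, with 1308 bases, had 3973, 4096 and 5284 FPKM in high ammonia, against 10964, 16732 and 10649 FPKM in low ammonia. Rank 14, with 2259 bases, had 3292, 3422 and 4089 FPKM in high ammonia, against 10042, 15444 and 10766 FPKM in low ammonia. In all 3 genes high ammonia library 3 was the highest of its group, low ammonia library 2 was the highest of all, and the groups lay apart. On the log2 scale they fell by 1.48, 1.502 and 1.73 (SE 0.20, 0.22 and 0.20; limma, adjusted p = 0.0280, 0.0323 and 0.0202).

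Rank 18, with 203 bases, had 3043, 2318 and 3057 FPKM in high ammonia libraries 1, 2 and 3, against 9984, 9287 and 7298 FPKM in low ammonia libraries 1, 2 and 3. Low ammonia library 1, not 2, was the highest here, and limma gave -1.66 on the log2 scale (SE 0.19, adjusted p = 0.0181). Together the 6 genes that fell took 2.40% ± 0.319 of counts in high ammonia and 7.42% ± 1.72 in low ammonia (SD, n = 3 each). The 5 that rose took 1.31% ± 0.122 in high ammonia and 0.413% ± 0.0779 in low ammonia. Since the genes in these sums were picked by the test, the direction of the sums is set by that choice.

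The largest falls among called genes were those of ranks 67 and 37. ENSAPLG00000013449, rank 67 with 726 bases, had 605, 517 and 534 FPKM in high ammonia libraries 1, 2 and 3, against 2002, 1370 and 3372 FPKM in low ammonia libraries 1, 2 and 3. The high ammonia libraries were close together while the low ammonia libraries differed up to 2.46 times (log2 difference -1.93, SE 0.31, limma adjusted p = 0.0448). ENSAPLG00000005918, rank 37 with 1444 bases, had 828, 1280.3 and 1251 FPKM in high ammonia, against 2678, 5541 and 3756 FPKM in low ammonia (log2 difference -1.80, SE 0.30, limma adjusted p = 0.0498). Its groups lay apart, with low ammonia library 2 the highest. Rank 37 passed the threshold in 4 of 14 alternative fits and rank 67 in 7 of 14, and the other 9 called genes passed in 4 to 9 of 14.

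**Figure D3:**
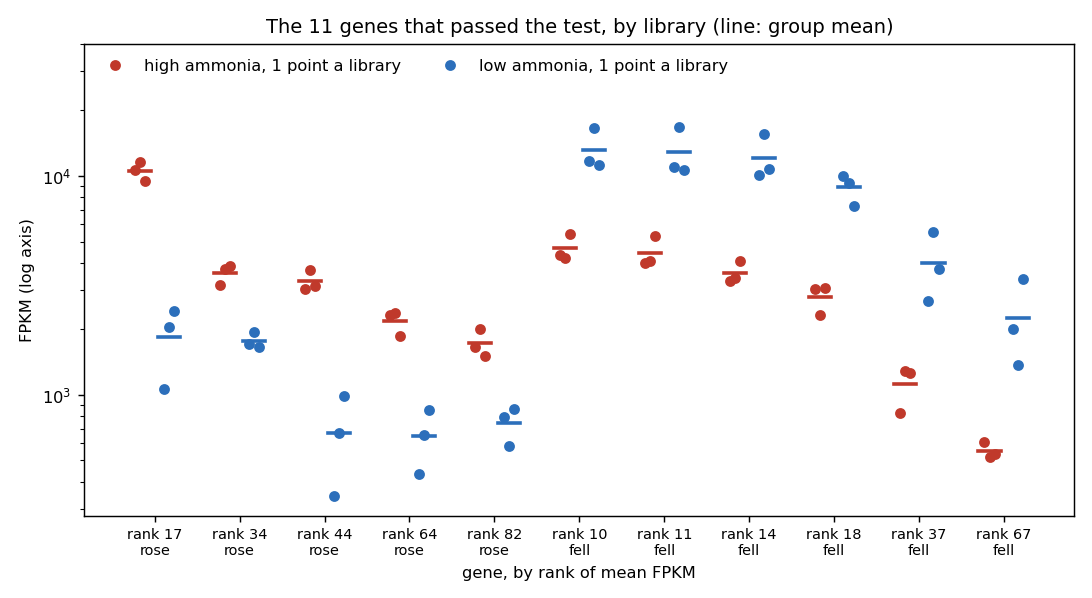
FPKM on a log axis is shown for the 11 called genes, the 5 that rose on the left and the 6 that fell on the right; each point is a library, high ammonia left of low ammonia, and the line is the group mean. In no gene do the groups overlap, as for rank 17 with 9499 to 11502 FPKM in high ammonia and 1066 to 2408 FPKM in low ammonia.

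The remaining 90 genes did not pass the test. The groups lay apart without overlap in 25 of the 101 genes, 10 higher and 15 lower in high ammonia, or 24.8%. Over all genes tested the groups lay apart in 24.8%, in 6.11% with high ammonia higher and in 18.7% with high ammonia lower. The share of both directions together was thus that of the background, but lower genes were a larger part of it over all genes. With median-ratio scaling 15 of the 101 genes were higher and 11 lower without overlap. With equal sums over the other genes it was 11 and 12. The split over all genes tested is not given for these scalings. The 101 genes had a median log2 difference of 0.017, with quartiles of -0.19 and 0.15 and 53 genes above 0. For all genes tested the median was -0.13 (quartiles -0.34 and 0.08), with 33.7% above 0. The class of annotated genes at 100 to 1000 FPKM had a median of 0.058 and 58.3% above 0, closer to that of the 101 genes. With median-ratio scaling the 101 genes had a median of 0.17 and all genes tested one of -0.0055. An absolute log2 difference of at least 1 was found in 14 of the 101 genes (13.9%) and in 3.77% of all genes tested, with 6.73% in the class at 100 to 1000 FPKM. Of these 14 genes, 5 reached the limit through the mean of a single group, and 9 of the 87 genes with both means at 1000 FPKM or more remained (10.3%). The median absolute difference was 0.17 in the 101 genes, 0.21 in that class and 0.23 in all genes tested.

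The 3 genes with the largest differences that missed the threshold while lower in high ammonia were ranks 49, 8 and 33. Rank 49, with 564 bases, had 79.2, 1066 and 142 FPKM in high ammonia libraries 1, 2 and 3, against 1704, 4917 and 2582 FPKM in low ammonia libraries 1, 2 and 3. Its groups lay apart, but high ammonia library 2 stood well above the other high ammonia libraries (log2 difference -3.60, SE 0.90, limma adjusted p = 0.117). Rank 8, with 405 bases, had 1063, 8967 and 1654 FPKM in high ammonia, against 9432, 33884 and 16372 FPKM in low ammonia (log2 difference -2.79, SE 0.80, limma adjusted p = 0.149). In both genes the groups lay apart, and high ammonia library 2 and low ammonia library 2 were well above the others of their groups. Without high ammonia library 2, limma gave -4.70 for rank 49 (adjusted p = 0.0388) and -3.71 for rank 8 (adjusted p = 0.0574). In the other alternatives the adjusted p was from 0.0907 to 0.305 for rank 49 and from 0.121 to 0.359 for rank 8.

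Rank 33, with 90 bases, had 1627, 2200 and 1505 FPKM in high ammonia libraries 1, 2 and 3, against 2460.1, 5773 and 2810 FPKM in low ammonia libraries 1, 2 and 3 (log2 difference -0.96, SE 0.33, limma adjusted p = 0.209). The groups lay apart, with low ammonia library 2 well above the rest. Among genes that were higher in high ammonia without a call, rank 31 with 895 bases had the largest difference. It had 3948, 3121 and 4159 FPKM in high ammonia, against 3093, 1017 and 1678 FPKM in low ammonia, where library 1 almost reached the high ammonia values (log2 difference 1.09, SE 0.37, limma adjusted p = 0.208).

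Within groups the 101 genes were steadier in high than in low ammonia. The median SD of log2(FPKM + 1) was 0.15 in high ammonia (quartiles 0.11 and 0.24) and 0.29 in low ammonia (quartiles 0.16 and 0.44), with median coefficients of variation of 10.9% in high ammonia and 19.2% in low ammonia. The SD was larger in low ammonia in 72 of the 101 genes (71.3%), against 67.3% of annotated genes at 100 to 1000 FPKM and 59.5% of all genes tested. The medians were 0.19 in high ammonia and 0.26 in low ammonia for that class, and 0.20 in high ammonia and 0.24 in low ammonia for all genes tested. A coefficient of variation above 30% was found in 6 genes in high ammonia and in 23 genes in low ammonia. With 3 libraries a group this difference was not tested, and genes of 1 library share that library.

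**Figure D4:**
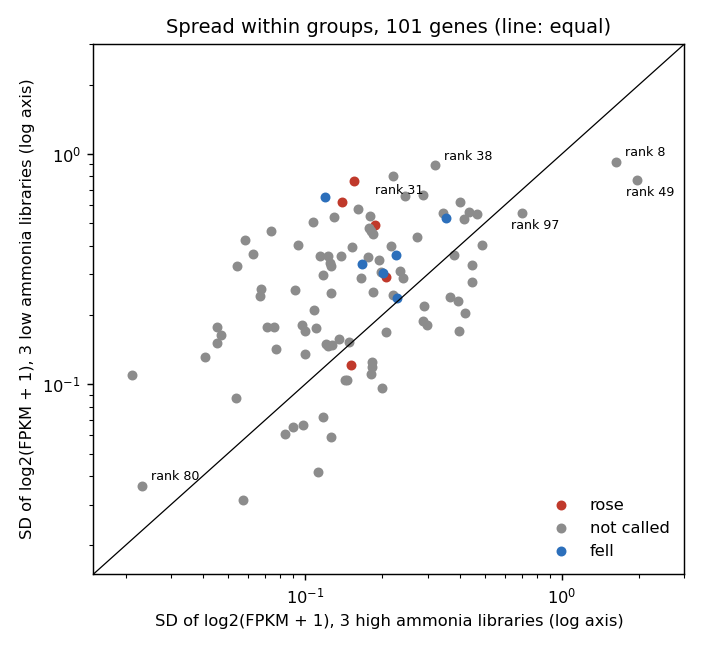
Each point is 1 of the 101 genes, with the SD of log2(FPKM + 1) over 3 high ammonia libraries across and over 3 low ammonia libraries upwards, both on log axes; the line marks equal SD. Of the points, 72 lie above the line, and ranks 8 and 49 stand apart at the right with an SD of 1.62 and 1.96 in high ammonia.

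The most variable genes differed in the library that set them apart. Ranks 49 and 8 had a pooled SD within groups of 1.49 and 1.32. Rank 38, with 426 bases, had 2992, 1986 and 2105 FPKM in high ammonia libraries 1, 2 and 3, against 1703, 1428 and 4503 FPKM in low ammonia libraries 1, 2 and 3, so that its pooled SD of 0.67 came mostly from low ammonia library 3. Rank 97, with 900 bases, had 645, 1701 and 983 FPKM in high ammonia, against 616, 1019 and 1310.4 FPKM in low ammonia. The groups overlapped, and the values spread widely within both. Rank 31, given above, had a pooled SD of 0.59.

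At the other end, rank 80, with 290 bases, had 1204, 1176 and 1167 FPKM in high ammonia libraries 1, 2 and 3, against 1257, 1322 and 1294 FPKM in low ammonia libraries 1, 2 and 3. Its pooled SD of 0.030 was the smallest of the 101 genes, and its groups lay apart by a narrow margin (log2 difference -0.13, SE 0.13, limma adjusted p = 0.656). This SE is larger than the pooled SD because limma draws the variance of a steady gene towards that of the other genes. Rank 88, with 744 bases, averaged 1142 ± 45.2 FPKM in high ammonia and 1129 ± 24.6 FPKM in low ammonia (SD, n = 3 each), and its highest value was 1.08 times its lowest. Rank 95, with 579 bases, averaged 976 ± 36.2 FPKM in high ammonia and 1157 ± 70.8 FPKM in low ammonia (log2 difference -0.24, limma adjusted p = 0.4003). In all, 9 genes stayed within a ratio of 1.2 between their highest and lowest library, and 15 exceeded a ratio of 3.

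Co-variation was described for each pair of genes by how much their log2 ratio varied (its SD) over the 6 libraries, a measure in which the scaling of a library cancels. A small SD also arises where both genes hardly vary, so it marks steady genes as well as genes that move together. Over the 5050 pairs its median was 0.45 and its range 0.031 to 3.61. It was below 0.15 in 252 pairs (4.99%). The same held for 3.71% of pairs of annotated genes at 100 to 1000 FPKM and 3.86% of pairs at 10 to 100 FPKM. Over pairs of all genes tested it was 3.07%. Counting error adds to the SD of low genes, and its part in these shares was not tested. The closest pair was ranks 77 and 88, with 252 and 744 bases, whose log2 ratio lay between 0.12 and 0.20 in all libraries (SD 0.031). Both genes were steady, with a highest value 1.12 and 1.08 times the lowest. At a limit of 0.15, 52 genes were joined by chains of such pairs. These chains included ranks 12 and 13, at 8665 ± 432 and 8102 ± 1053 FPKM in high ammonia and 8531 ± 1032 and 8429 ± 711 FPKM in low ammonia (SD, n = 3 each). They also included rank 19, at 5728 ± 248 FPKM in high ammonia and 5720.5 ± 1466 FPKM in low ammonia, and rank 21, at 5026 ± 190.5 FPKM in high ammonia and 4999 ± 1186 FPKM in low ammonia. The limma adjusted p of these 4 genes was 0.868 or more.

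Requiring every pair in a group to stay below an SD of 0.3 gave 10 groups of 3 or more genes with 75 genes in all, 4 pairs and 18 genes alone. These groups were formed from the values after they were seen, so no test was made on them. The largest, group 1, held 27 genes with 8.07% of all FPKM, among them ranks 4, 12, 13, 80, 88, 95 and 101. Its mean deviation stayed between -0.029 and 0.035 on the log2 scale in every library, and its log2 differences lay between -0.27 and 0.14. Group 1 thus gathered genes that varied little, so its size is no measure of joint movement. Rank 101, the last gene inside the limit, with 1980 bases, averaged 1025 ± 33.2 FPKM in high ammonia and 980.0 ± 114 FPKM in low ammonia (SD, n = 3 each).

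**Figure D5:**
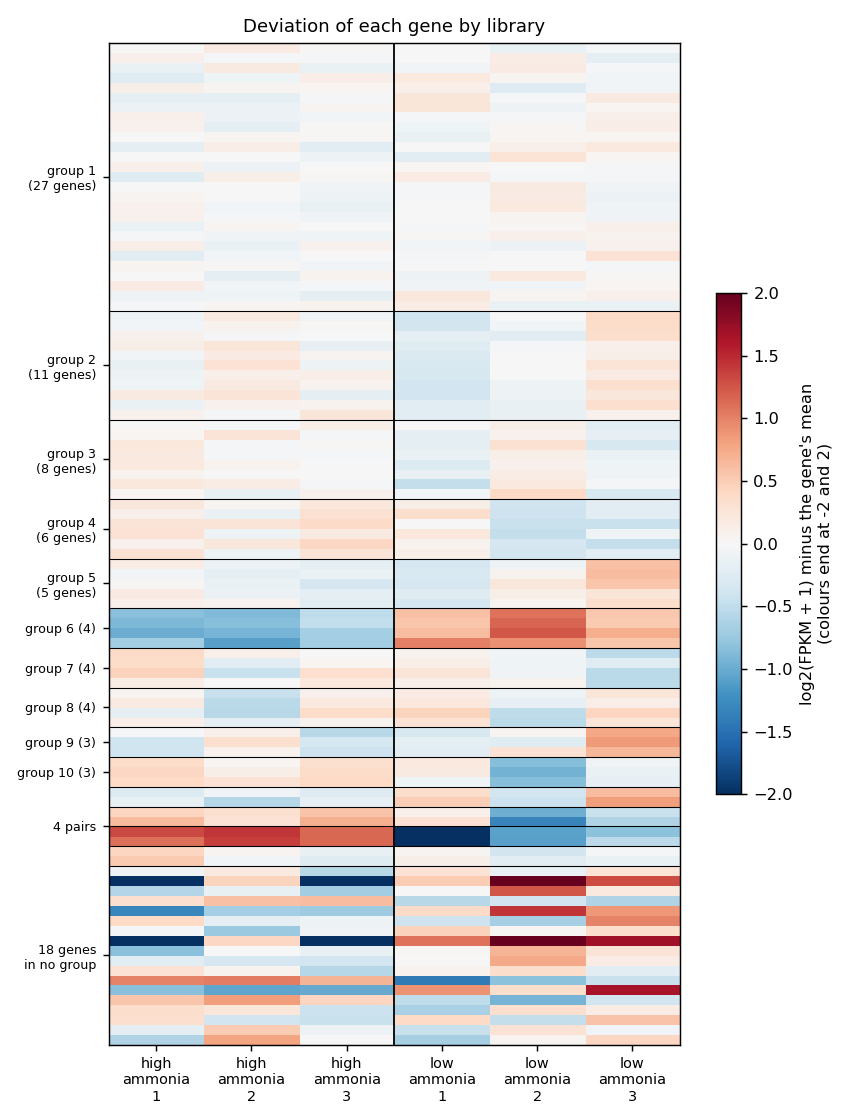
Rows are the 101 genes sorted into groups in which every pair has an SD of the log2 ratio below 0.3, columns are libraries with high ammonia on the left, and colour is log2(FPKM + 1) minus the mean of the gene. Group 1 is pale throughout, group 2 is low in low ammonia library 1 and high in library 3, and group 6 is low in all high ammonia libraries.

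Groups 2, 5 and 9 had their highest mean deviation in low ammonia library 3. In group 2, however, ranks 22, 29, 43 and 61 were highest in high ammonia library 2 and rank 93 in high ammonia library 3. Group 2 held 11 genes, of which 4 had under 100 bases of exon, among them rank 5. Its mean deviation was -0.020, 0.14 and 0.0067 in high ammonia libraries 1, 2 and 3, against -0.30, -0.070 and 0.25 in low ammonia libraries 1, 2 and 3. Ranks 5 and 19, with 92 and 93 bases, kept a log2 ratio with an SD of 0.075. Group 5, of 5 genes with 138 to 639 bases, deviated by -0.31 in low ammonia library 1 and by 0.47 in low ammonia library 3. Group 9, of ranks 3, 16 and 55, deviated by 0.76 in low ammonia library 3 and by -0.44 in high ammonia library 3. Of the 19 genes of these 3 groups limma called 0, and 0 had an unadjusted p below 0.05. Over all 11717 genes tested, 2013 had such a p.

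Groups 4 and 10 and the pair of ranks 9 and 31 had their lowest mean deviation in low ammonia library 2. Ranks 15 and 91 of group 4 were lowest in low ammonia library 3. Group 4 held ranks 1, 2, 15, 36, 91 and 99, with 17.9% of all FPKM and 20.5% of counts, the most of any group. Its mean deviation was 0.21, 0.037 and 0.29 in high ammonia libraries 1, 2 and 3, against 0.14, -0.41 and -0.28 in low ammonia libraries 1, 2 and 3. In this mean, low ammonia library 1 thus lay among the high ammonia libraries. In ranks 15 and 91, however, every low ammonia library lay below every high ammonia library. Rank 15 was the gene of this group with the largest difference, at 9394 ± 444 FPKM in high ammonia and 6271 ± 1179 FPKM in low ammonia (SD, n = 3 each, log2 difference 0.60, SE 0.17, limma adjusted p = 0.147). Group 10, of ranks 28, 32 and 51, deviated by -0.88 in low ammonia library 2, and the pair of ranks 9 and 31 by -1.15. The mean deviation of the pairs of ranks 7 and 89 and ranks 27 and 41 was lowest in that library too, at -0.40 and -0.29. Ranks 7 and 89 were lower on average in high ammonia, with log2 differences of -0.40 and -0.59. Ranks 27 and 41 were higher, with 0.23 and 0.15. The 11 genes of groups 4, 10 and ranks 9 and 31 all averaged higher in high ammonia, with log2 differences of 0.18 to 1.09. Limma called 0 of them, and 5 had an unadjusted p below 0.05, as had 2013 of all 11717 genes tested. The high minus low difference took part in forming these groups, so this count is no support for them.

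Group 6 was made of ranks 10, 11, 14 and 18, all called as falling. Ranks 10 and 11 kept the closest ratio, with a log2 ratio between -0.025 and 0.13 over the 6 libraries (SD 0.053). Rank 14 moved further than either, so that the log2 ratio of rank 11 to rank 14 was 0.30 in high ammonia and 0.076 in low ammonia. Among the genes that rose, ranks 17 and 44 formed a pair with an SD of 0.17. Their log2 ratio was 1.68 in high ammonia and 1.51 in low ammonia. The high minus low difference took part in forming group 6 and this pair too, so their shared direction is no support for them. The other 5 called genes, ranks 34, 37, 64, 67 and 82, joined no group. Ranks 8 and 49, both highest in low ammonia library 2 and lowest in high ammonia library 1, had a log2 ratio with an SD of 0.50 and stayed apart under the limit of 0.3. Their values put the 6 libraries in the same order, so this limit leaves out genes that move together by unequal amounts.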

How the data were processed

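RNA was taken with Trizol from frozen liver and built into libraries with the TruSeq RNA kit of Illumina, as the labels' protocols state. Each library has 1 column of FPKM made by the authors, a unit read from the values. Aligner, counter, genome build and annotation: not given in the sources used here. The kit does not mark strand, so a gene and an overlapping antisense transcript cannot be told apart.

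Library totals came from the steps of FPKM times exon length in newly assembled loci with 1 transcript, where 100% of values were whole within 0.01. For annotated genes the shortest length that made all values whole was taken; on newly assembled genes this search gave the deposited exon length itself for 97.5% and a divisor for 2.53%. Recovered counts came to between 99.5% and 99.6% of the totals. Intervals and counting errors cover counting error only.

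Limma 3.58.1 (R 4.3.3), with a variance trend, was fitted to log2(FPKM + 1) of the 11717 genes that reached 1 FPKM in 3 libraries or more, 2-sided, with Benjamini-Hochberg adjustment over all of them. The fold scale understates changes of low genes, which does not touch genes near 1000 FPKM. The script was tested on simulated data. Co-variation used complete linkage in scipy 1.17.1, with Python 3.11.15.

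The genes and lists were chosen with earlier results of these data known. Genes named are those called, the 10 highest, the 5 largest differences not called, the 5 most and 3 least variable, the closest pair, 8 genes of the largest chain and the gene next to the limit. Identifiers are printed for the largest 2 changes each way among called genes. Alternatives were other pseudocounts, filters, scalings and limits, no variance trend, limma voom on recovered counts and each library left out. Gene lists and cell markers could not be used, since the Ensembl identifiers could not be paired with names.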

Additional observations from a re-analysis of the deposited data

How the results depend on the processing

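All 11 called genes kept their direction in 14 alternative fits each, and 80 of their 154 values passed the threshold. Rising and falling calls were 5 and 6 and lay within 1.5 times of these with pseudocounts of 0.1 and 10, a minimum of 5 FPKM, equal sums over the other genes, no variance trend and voom on recovered counts. Over all genes of those fits, from 45 to 66 rose and from 36 to 66 fell, against 48 and 44 in the main fit. With no filter on low values, which raised the genes tested from 11717 to 19528, calls among the 101 genes were 0 and 0 by limma, with 7 higher and 10 lower at an unadjusted p below 0.05. Over all 19528 genes of that fit, 15 rose, 9 fell and 2542 had an unadjusted p below 0.05. Median-ratio scaling gave 5 and 3, with 74 and 33 over all genes tested. Leaving out 1 library gave 0 to 3 rising and 0 to 3 falling calls, against 5 to 28 rising and 3 to 28 falling over all genes tested. For the calls, other limits of membership were chosen after seeing the data. By both group means, 2 of 87 genes rose and 5 fell. At means of 500 FPKM or more it was 5 and 7 of 211 genes, and at 2000 FPKM or more 2 and 5 of 43 genes. Over all 11717 genes tested the main fit called 48 rising and 44 falling. The median log2 difference of the abundant genes, 0.017, was 0.17 with median-ratio scaling, 0.058 with equal sums over the other genes, and from -0.048 to 0.035 without 1 library. Their share of FPKM, 54.3% in both groups, was 56.4% in high and 56.7% in low ammonia over annotated genes, 51.5% and 49.5% by counts, 40.2% and 43.3% without rank 1, 46.8% and 48.7% with rank 1 also out of the total (chosen after seeing the data), 30.1% and 33.3% without ranks 1 to 5, 63.1% and 62.9% at 500 FPKM or more, and 45.3% and 45.4% at 2000 FPKM or more. The median SD within groups, 0.15 in high and 0.29 in low ammonia, was 0.18 and 0.29 with median-ratio scaling. With equal sums over the other genes it was 0.17 in high and 0.28 in low ammonia. The 252 pairs below an SD of 0.15 became 67 at 0.1 and 589 at 0.2, and from 258 to 411 without 1 library, the highest without low ammonia library 3. The cause of these shifts was not tested beyond the fewer samples or other genes that each alternative has by construction.

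Of 23 named genes that were not called, 1 was called in 1 fit, rank 49 without high ammonia library 2. Direction turned in 23 of 476 values over all 34 named genes, all in genes whose log2 difference was within 0.13 of 0. With median-ratio scaling rank 13 stood at 0.089, rank 77 at 0.15 and rank 80 at 0.023, and with equal sums rank 77 stood at 0.038. Without 1 library the log2 difference ranged from -0.18 to 0.21 for rank 5, from -0.064 to 0.11 for rank 12, from -0.17 to 0.0067 for rank 13, from -0.14 to 0.22 for rank 19, from -0.075 to 0.22 for rank 21, from -0.25 to 0.57 for rank 38, from -0.048 to 0.035 for rank 77, from -0.0089 to 0.048 for rank 88 and from -0.24 to 0.46 for rank 97. No paired analysis was possible because only 1 of the numbers in the deposited library names occurs in both groups. Arms with 2 libraries left are assumed to vary like the others. Depth does not limit these genes, whose lowest count was 915.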
